A study of Mus musculus with 9 samples.

Results

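Accessible regions in gene deserts were followed through the reprogramming of mouse fibroblasts. A desert region was a region of the union of 9 ATAC-Seq peak sets, on chromosomes 1 to 19, whose midpoint lay more than 200 kb from every annotated transcription start site (TSS) of GENCODE vM1 on mm9. Overlapping peaks of the libraries were merged for this union. Of 205801 regions, 7876 (3.83%) met the rule, 35505 lay 50 to 200 kb from the nearest TSS and 162420 lay within 50 kb. The positions that meet the rule form 866 blocks with 257.2 Mb of known sequence, 10.7% of the 2393.8 Mb examined, and 764 of the blocks held a desert region. The name desert holds for start sites but not for gene bodies: 1222 of the regions (15.5%) lay inside an annotated gene, downstream of its start, and 11.9% of the desert bases did so as well. The midpoints lay at a median of 289.9 kb from the nearest TSS, 976 lay beyond 500 kb and 9 beyond 1 Mb. The median width was 342.0 bp, against 367.0 bp for all other regions.

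In ATAC-Seq, the enzyme Tn5 inserts adapters where DNA is accessible, so that open chromatin gives many tags. Mouse embryonic fibroblasts (MEFs) with a GFP tag on Oct4 were infected with pMXs retroviruses that carry Oct4, Sox2, Klf4 and c-Myc (OSKM), which turn part of the cells into induced pluripotent stem cells (iPSCs). D0 are the fibroblasts of day 0, which the methods define by the infection step, and D3 are the unsorted cells of day 3. D6T- and D9T- are Thy-1-negative cells of days 6 and 9, which have lost a fibroblast surface marker. D12S+ and D16S+ are SSEA-1-positive cells of days 12 and 16, which have gained an early marker of pluripotency, and iPSCs are fully reprogrammed. D6 siH3.3 and D6 siNT are Thy-1-negative cells of day 6 given siRNA against the histone variant H3.3, or non-targeting siRNA, before induction. The sorted cells are the fraction on the successful route and do not stand for the whole culture. Each condition had 1 library (no replicates), so no difference between libraries has a replicate check and none was tested. Intervals are 95% Wilson intervals unless stated otherwise and cover only the counting of regions or tags.

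The libraries held from 13213117 tags (D9T-) to 31714845 (D0), and the lowest pileup called lay between 0.331 and 0.530 CPM, which here are tags of the pileup per 1000000 tags of the library. The pileup is the number of tags, each extended to 200 bp, that cover a summit. A region without a peak may have been open below that floor. Within 1 kb of a TSS, a peak was called at 6 of 6 pluripotency markers (Nanog, Zfp42, Dppa5a, Esrrb, Tdgf1 and Lin28a) in D12S+, D16S+ and iPSCs, and at 0 to 3 of them in the other libraries. Of 6 fibroblast markers (Twist1, Prrx1, Col1a2, Col3a1, Thy1 and Fn1), 4 had a peak in D0, 6 in D3 and 5 in D6T-. There were 2 in D9T-, 5 in each of D12S+ and D16S+, and 3 in iPSCs and in each siRNA library. Their number thus did not fall steadily along the course. Thy1, whose product was used for the sort, had none in D6T- or D9T-.

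Gene deserts are long stretches of the genome without start sites. They often flank genes of transcription factors, adhesion molecules and guidance receptors, and can hold enhancers that act from far away by looping of the chromatin. AP-1 (dimers of Fos and Jun proteins), TEAD and RUNX factors are common at fibroblast enhancers, while Oct4 with Sox2 binds a composite site at enhancers of pluripotent cells. Transposable elements make up much of desert sequence, and some carry sites for such factors.

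Some sequences are shown first, as examples of 4 classes of desert regions with a match to a motif described below. Each is the 200 bp around the highest summit, forward strand of mm9, with the motif in capitals. They are the strongest of their class that hold the motif and have under 10% multi-copy sequence, as defined below. The first set was called in D0 and D3 and in none of D12S+, D16S+ and iPSCs. Its capitals mark the AP-1 motif TGANTCA, with 2 matches near Kcnip4, 1 near Pros1 and 3 near Ntrk3. Kcnip4 encodes a potassium channel-interacting protein, and its TSS lay 236.6 kb from the region chr5:50152171-50152834, between genes. Pros1, the gene of the anticoagulant protein S, lay 392.3 kb from chr16:63313389-63313827. Ntrk3, a neurotrophin receptor gene, lay 761.9 kb from chr7:84760519-84761110.
chr5:50152401-50152600, near Kcnip4: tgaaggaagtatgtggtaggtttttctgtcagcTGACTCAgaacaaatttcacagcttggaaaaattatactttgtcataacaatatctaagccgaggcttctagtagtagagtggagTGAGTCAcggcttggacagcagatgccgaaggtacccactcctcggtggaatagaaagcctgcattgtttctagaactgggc
chr16:63313512-63313711, near Pros1: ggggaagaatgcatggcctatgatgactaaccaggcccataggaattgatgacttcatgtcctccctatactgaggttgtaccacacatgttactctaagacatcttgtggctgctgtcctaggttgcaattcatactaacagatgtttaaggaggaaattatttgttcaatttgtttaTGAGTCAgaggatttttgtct
chr7:84760696-84760895, near Ntrk3: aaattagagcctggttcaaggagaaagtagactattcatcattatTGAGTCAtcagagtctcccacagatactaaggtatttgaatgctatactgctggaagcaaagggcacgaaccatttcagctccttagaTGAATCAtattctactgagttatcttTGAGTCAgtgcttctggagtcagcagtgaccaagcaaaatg

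The next set shows other classes. A pair of regions called in D12S+, D16S+ and iPSCs and in neither D0 nor D3 held the SOX-POU composite motif TTGTNATGC, which joins a SOX and a POU site as bound by Sox2 with Oct4. The one near Lcorl (314.9 kb) matched on the reverse strand and had its highest pileup, 1.42 CPM, in D16S+. The one near Samd9l (232.8 kb) had 0.992 CPM in D16S+. Another region was called in all 3 day 6 libraries and in none of D0, D12S+, D16S+ and iPSCs. It held an AP-1 match, lay inside Ctnnd2, the gene of delta-catenin, and had 4.53 CPM in D6T-. Its pileup was 1.85 CPM in D3 and 2.65 CPM in D9T-. A region called in all 9 libraries, with a match to the motif of the loop-anchoring factor CTCF, lay 298.6 kb from Gm10650 and had from 0.715 CPM (iPSCs) to 2.99 CPM (D6T-).
chr5:46563609-46563808, near Lcorl: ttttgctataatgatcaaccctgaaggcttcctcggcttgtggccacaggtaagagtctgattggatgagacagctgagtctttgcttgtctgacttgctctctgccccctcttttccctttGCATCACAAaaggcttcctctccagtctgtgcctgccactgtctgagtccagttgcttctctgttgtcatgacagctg
chr6:3102111-3102310, near Samd9l: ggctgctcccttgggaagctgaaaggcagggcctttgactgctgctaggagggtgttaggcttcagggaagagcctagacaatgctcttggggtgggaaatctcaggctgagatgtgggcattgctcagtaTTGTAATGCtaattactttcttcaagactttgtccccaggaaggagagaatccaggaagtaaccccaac
chr15:30734885-30735084, in Ctnnd2: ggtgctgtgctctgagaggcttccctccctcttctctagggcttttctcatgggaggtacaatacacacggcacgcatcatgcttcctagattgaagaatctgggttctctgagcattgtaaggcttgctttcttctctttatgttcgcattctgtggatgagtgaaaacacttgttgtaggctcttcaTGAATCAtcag
chr3:128040048-128040247, near Gm10650: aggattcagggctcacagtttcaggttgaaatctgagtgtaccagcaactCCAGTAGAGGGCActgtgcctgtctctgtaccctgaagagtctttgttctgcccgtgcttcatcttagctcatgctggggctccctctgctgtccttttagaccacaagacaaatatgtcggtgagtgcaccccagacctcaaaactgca

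Desert regions were called most often in D6T-. Of the 7876, a peak was present at 2159 in D0, 2592 in D3, 5513 in D6T- and 1053 in D9T-. Later in the course there were 1050 in D12S+, 1300 in D16S+ and 1090 in iPSCs, and the siRNA libraries held 1607 (D6 siH3.3) and 1460 (D6 siNT). D6T- thus held 70.0% of all desert regions, and each other library at most 32.9%. As background, a peak was called at 36.8% of all 205801 regions in D0, 48.4% in D3, 61.5% in D6T-, 16.0% in D9T-, 25.0% in D12S+, 22.1% in D16S+ and 27.2% in iPSCs. The background was 20.6% in D6 siH3.3 and 20.2% in D6 siNT. The share of desert regions with a peak was below this background in each library but D6T-, with 27.4% in D0 and 13.8% in iPSCs. D6T- was not the deepest library, with 21390800 tags.

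As a share of each library's own regions, desert regions made up 4.36% in D6T- (4.24 to 4.47), 2.85% in D0 (2.73 to 2.97), 2.04% in D12S+ and 1.95% in iPSCs (1.83 to 2.06). The number of peaks called moves this order. When each library was held to its 32954 strongest regions, the number called in D9T-, the share was 3.20% in D0, 2.40% in D3, 3.00% in D6T- and 3.20% in D9T-. It was then 1.58% in D12S+, 2.62% in D16S+ and 2.00% in iPSCs, while D6 siH3.3 had 3.65% and D6 siNT 3.55%. D6T- no longer stood above D0 in this setting, and D12S+ and iPSCs had the lowest shares in both.

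**Figure D1:**
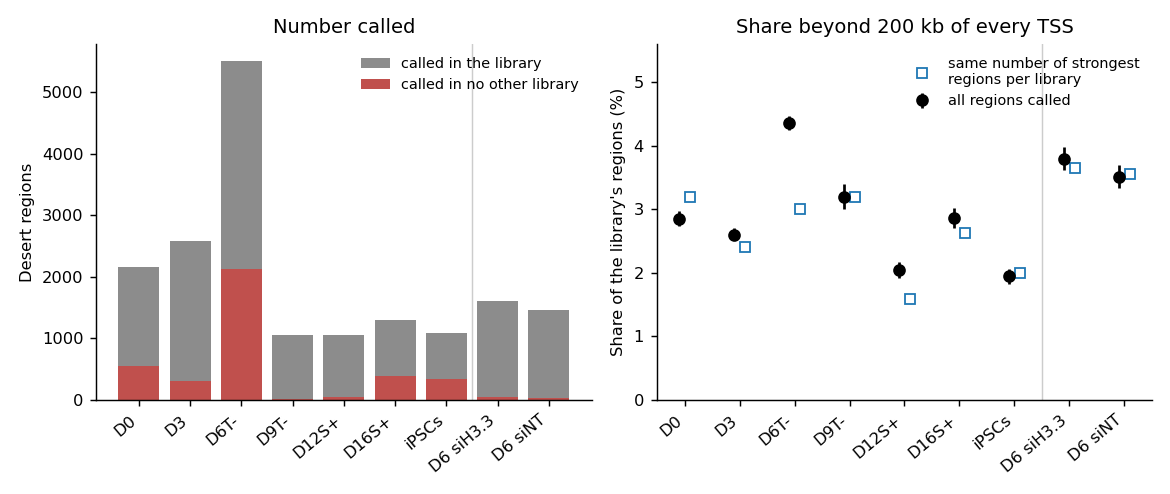
Left, bars give the number of desert regions with a peak in each library, and the red part those called in no other library. Right, filled points give desert regions as a share of all regions of the library (%, with 95% Wilson intervals), and open squares the share among the 32954 strongest regions of each library. D6T- has 5513 desert regions, and D12S+ and iPSCs have the lowest shares in both settings.

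The density of accessible regions was lower in each bin of distance farther from a TSS, in all 9 libraries. Per Mb, D0 had 0.244 times as many regions in the deserts as outside (0.234 to 0.254), D6T- 0.378 times (0.368 to 0.389) and iPSCs 0.165 times (0.155 to 0.175). Against the mean over the chromosomes examined, the density within 1 kb of a TSS ranged from 3.78 times (D6T-) to 8.22 times (D16S+). At 200 to 500 kb it ranged from 0.186 times (iPSCs) to 0.427 times (D6T-), and beyond 500 kb from 0.121 times (D12S+) to 0.296 times (D6T-). Between these last bins, the values were 0.274 and 0.227 times in D16S+ and 0.186 and 0.156 times in iPSCs, against 0.285 and 0.169 times in D0.

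**Figure D2:**
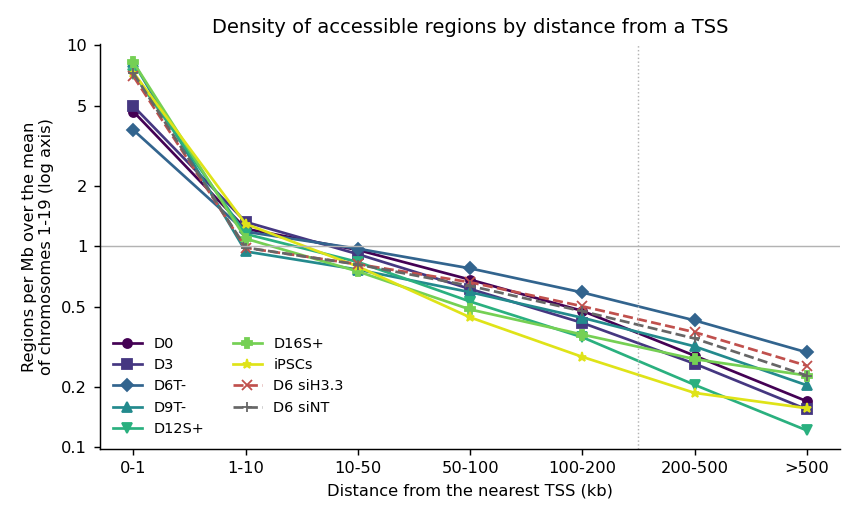
Regions per Mb over the mean of chromosomes 1 to 19 (log axis) in 7 bins of distance from the nearest TSS (kb), with 1 line per library. Points right of the dotted line are the desert regions. All lines go down with distance, D6T- is highest beyond 200 kb (0.427 and 0.296) and D12S+ lowest beyond 500 kb (0.121).

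Few desert regions had a peak throughout. Of the 7876, 3847 (48.8%) were called in 1 library, against a background of 46.4% over all regions, and 51 (0.648%) in all 9, against a background of 5.86%. The share called in all 9 was 0.966% at 50 to 200 kb from a TSS and 7.18% within 50 kb, so it was also low next to the deserts. A single library, D6T-, held 2133 that were called nowhere else (27.1%, background 16.6%), of which 1460 reached 0.530 CPM, the highest of the floors. The share called in D6T- alone was 22.1% at 50 to 200 kb and 14.9% within 50 kb, so it was also above the background next to the deserts. Of the desert regions of D6T-, 38.9% had a peak in D3 and 27.8% in D0, against 57.0% and 40.7% of the D6T- regions outside the deserts. In the other direction, 82.6% of the D3 desert regions and 95.8% of those of D9T- had a peak in D6T-, against 71.1% and 97.9% outside. Of the iPSC desert regions, 60.6% had a peak in D16S+ and 9.54% in D0, against 58.6% and 37.8% for iPSC regions outside the deserts. The 51 desert regions called in all 9 libraries had a median GC content of 52.5%, against 44.0% for all desert regions and 50.5% for all other regions. Regions called in all 9 had 53.5% at 50 to 200 kb and 63.5% over all regions outside the deserts.

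From the start to the end of the course, 2055 desert regions were called in D0 and not in iPSCs (26.1%, background 26.7%), and 986 in iPSCs and not in D0 (12.5%, background 17.1%). Both libraries had a peak at 104 (1.32%, background 10.1%), and at 2.72% of regions 50 to 200 kb from a TSS. An early class, called in D0 and D3 and in none of D12S+, D16S+ and iPSCs, held 845 desert regions (10.7%, background 8.84%). A late class, called in D12S+, D16S+ and iPSCs and in neither D0 nor D3, held 223 (2.83%, background 2.55%).

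The classes differed in their sequences. Motifs were searched on both strands of the 200 bp around each region's highest summit over all 9 libraries. For 59.8% of desert regions this summit was that of D6T-. A share given for a library is thus often scored at the summit of another library, and the same window served for GC content and 24-mer copies. The AP-1 motif was found in 55.4% of the early desert regions (52.0 to 58.7), in 7.62% of the late ones (4.81 to 11.9) and in 36.9% of all desert regions. Over all other regions its share was 23.7%, and at 50 to 200 kb from a TSS it was 32.4%. Early regions at 50 to 200 kb had a share of 53.5%, and late ones 7.23%, so this contrast between classes was also seen nearer to genes. The TEAD motif ACATTCC was found in 12.8% of early desert regions (10.7 to 15.2), 8.97% of early regions outside the deserts and 4.89% of all other regions. The RUNX motif AACCACA was found in 12.4% of early and 1.79% of late desert regions, and in 5.84% of all other regions. At 50 to 200 kb its share was 11.2% of early and 3.56% of late regions, so this contrast was also seen nearer to genes. A match gives letters in the window and is not a measurement of binding.

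By library, the AP-1 share among desert regions was 48.3% in D0 (46.2 to 50.4), 43.8% in D3, 47.3% in D6T-, 44.3% in D9T- and 28.9% in D12S+ (26.2 to 31.7). It was 8.54% in D16S+ and 7.71% in iPSCs (6.27 to 9.44). D12S+ and D16S+ differed in this although both were SSEA-1-positive. The siRNA libraries had 49.2% (D6 siH3.3) and 48.5% (D6 siNT). In D0 the share was higher farther from a TSS, with 9.11% within 1 kb, 33.6% at 10 to 50 kb, 42.9% at 100 to 200 kb and 56.7% beyond 500 kb. In iPSCs it was 4.75% within 1 kb, 9.90% at 10 to 50 kb, 8.82% at 100 to 200 kb and 6.33% beyond 500 kb. The interval of this last value, 3.47 to 11.3, takes in the share at 10 to 50 kb.

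**Figure D3:**
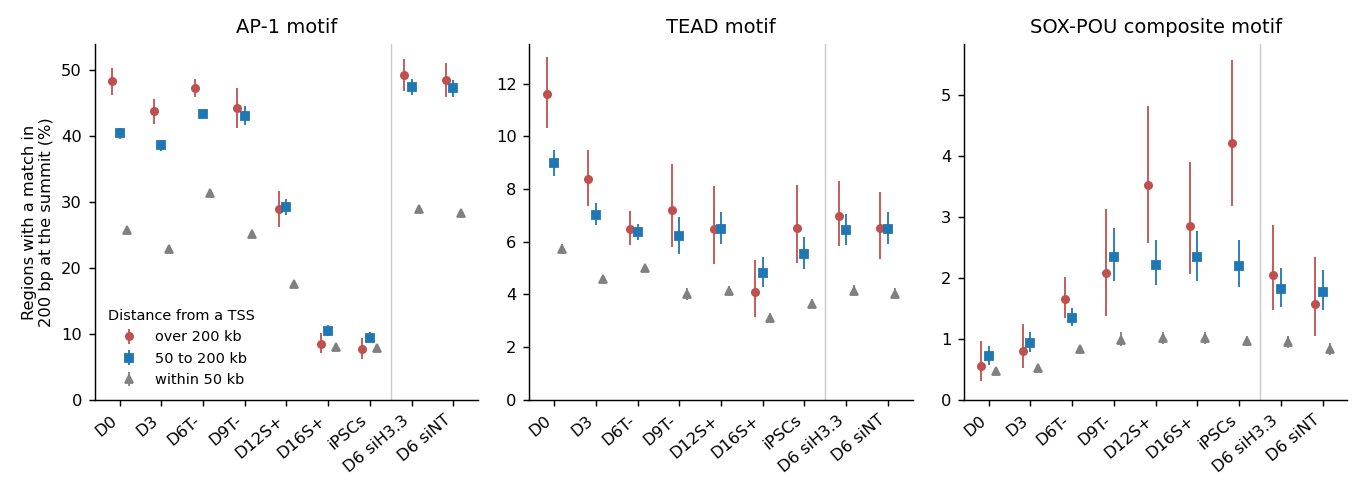
Share of regions (%) with a match to the AP-1, TEAD or SOX-POU composite motif, by library, for desert regions and for regions nearer to a TSS, with 95% Wilson intervals. Matches were sought in 200 bp at the highest summit of the region over all libraries. AP-1 is at 48.3% in D0 and 7.71% in iPSCs for desert regions, and the SOX-POU share is highest in iPSCs at 4.22%.

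In the late class, much of the SOX and SOX-POU share lay in 1 sequence family. The SOX motif ACAATGG was found in 14.3% of late and 3.31% of early desert regions, against 8.44% of late regions outside the deserts and 3.99% of all other regions. The SOX-POU composite was found in 18 of 223 late desert regions, which is 8.07% (5.17 to 12.4), in 0.828% of early ones (0.402 to 1.70) and in 0.903% of all other regions. Its share was 4.93% among late regions at 50 to 200 kb and 3.86% among all late regions outside the deserts. One family of similar sequences, the second of those described below, held 24 of the 32 late SOX matches and 12 of the 18 SOX-POU matches, so the matches are not independent and the interval is too narrow. Without its 38 late members, the shares were 4.32% for SOX (2.21 to 8.30) and 3.24% for SOX-POU (1.49 to 6.89). The octamer ATGCAAAT, the POU site alone, was found in 4.48% of late and 1.66% of early desert regions, and in 4.72% of late regions outside the deserts. The letters of SOX, SOX-POU and octamer matches can overlap in 1 window. The ESRR motif TCAAGGTCA, bound by Esrrb, was found in 5 of 223 late desert regions, which is 2.24% (0.961 to 5.14). Its share was 0.736% of late regions outside the deserts and 0.427% of all other regions. The third family described below held 5 ESRR matches over all its members. How many of these were late was not counted, so the late matches may not be independent. The KLF motif GGGTGTGG was found in 2.84% of all desert regions and 3.76% of all other regions, and the CTCF motif in 0.876% and 2.09%. Of the desert regions called in both D0 and iPSCs, 8 of 104 held the CTCF motif, which is 7.69% (3.95 to 14.4), against 10.3% of such regions at 50 to 200 kb and 5.81% of all such regions outside the deserts.

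The 5 strongest early regions, which by the rule of the class have no peak from D12S+ on, were highest in D6T-. The region near Kcnip4 had 1.36 CPM in D0, 1.82 in D3, 4.30 in D6T- and 1.51 in D9T-, and 1.93 and 1.97 in D6 siH3.3 and D6 siNT. The region 392.3 kb from Pros1 had 1.32, 1.82 and 4.11 CPM in D0, D3 and D6T-, and 1.29 in both siRNA libraries. A second one, 350.1 kb from the same gene, had 1.58, 2.35, 3.83 and 1.14 CPM from D0 to D9T-. The region of Ntrk3 had 1.95 CPM in D0, 1.98 in D3, 3.83 in D6T-, 1.18 in D6 siH3.3 and 0.643 in D6 siNT. A region 367.5 kb from Pvrl3, the gene of the adhesion molecule nectin-3, had 1.26, 2.75 and 3.79 CPM in D0, D3 and D6T-, with 1.02 in D6 siH3.3 and 0.459 in D6 siNT. An AP-1 match was found in 4 of the 5.

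The strongest late regions had no peak in any of the 6 other libraries and were highest in D16S+. The region nearest to Gm8991 had 2.55 CPM in D12S+, 4.58 in D16S+ and 2.48 in iPSCs. That near Gm16391 had 1.48, 4.49 and 2.52 CPM and held both a SOX and a SOX-POU match. A region 1858.3 kb from G6pd2 had 2.50, 4.25 and 0.602 CPM. A region 503.3 kb from Nmbr, the neuromedin B receptor gene, had 1.25, 3.68 and 1.92 CPM. The last, 528.2 kb from Kcnd2, a potassium channel gene, had 0.852, 3.07 and 1.84 CPM. From 32.2% to 76.3% of their 24-mers occurred at least 10 times in the genome. Among late regions with under 10% of such 24-mers, a set added after the values were seen, the strongest lay 281.9 kb from C030005K15Rik (2.50, 3.02 and 2.14 CPM in D12S+, D16S+ and iPSCs, and 0.605 in D9T-). A region 835.0 kb from Cntnap5a, a contactin-associated protein gene, had 2.79 CPM in D16S+ and 2.52 in iPSCs. A region 235.0 kb from Gap43, a gene of growing axons, had 1.65, 2.50 and 1.24 CPM from D12S+ on, and 0.467 in D6T-.

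**Figure D4:**
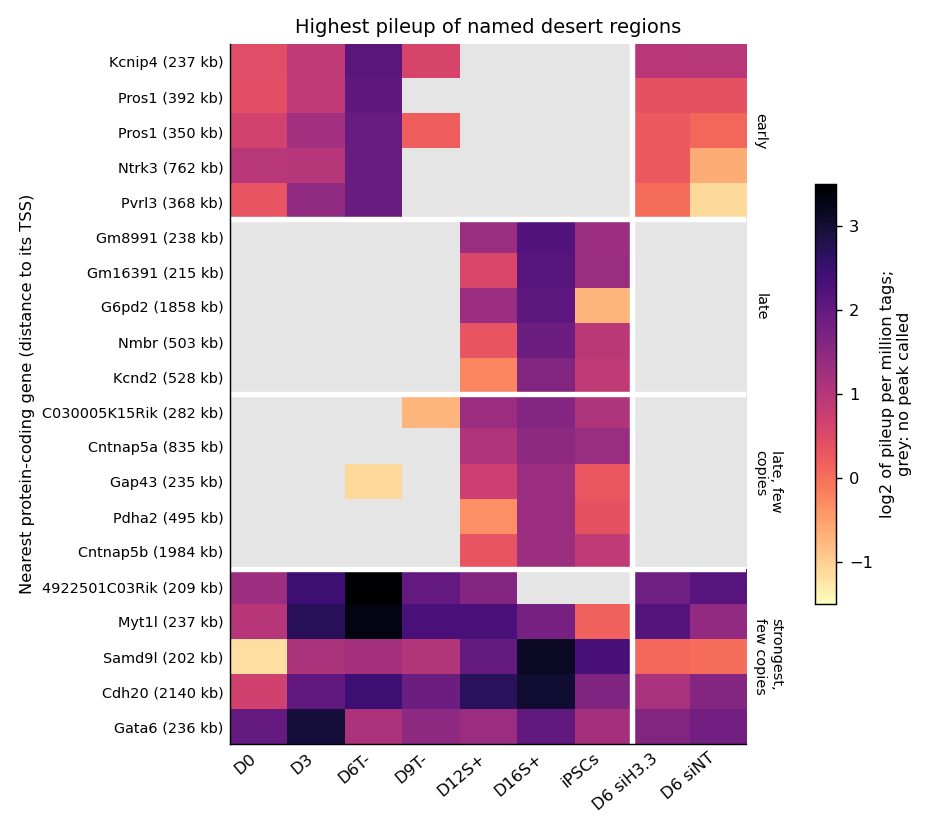
Highest pileup in CPM (log2 colour scale) of named desert regions, in rows labelled by the nearest protein-coding gene and the distance to its TSS, in each of the 9 libraries. Grey marks no peak. The 5 early regions are highest in D6T- and grey from D12S+ to iPSCs, and the 5 late ones are highest in D16S+.

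Multi-copy sequence was most frequent in D16S+ and iPSCs. A window was called multi-copy when over 50% of its 24-mers occurred at least 10 times in the genome. This held for 592 desert regions (7.52%), against 4.46% of regions at 50 to 200 kb and 3.12% of all other regions. By library the share was 0.741% in D0, 6.17% in D3, 1.16% in D6T-, 0.760% in D9T- and 8.19% in D12S+. It was 27.6% in D16S+ (25.3 to 30.1) and 20.5% in iPSCs (18.2 to 23.0), and 1.06% and 0.822% in D6 siH3.3 and D6 siNT. At 50 to 200 kb the shares were 15.7% in D16S+ and 7.83% in iPSCs. Among desert regions called in D16S+ alone it was 42.6%, and among those of D3 alone 27.3%. For such regions at 50 to 200 kb the shares were 36.9% and 12.2%. The study removed ambiguously mapped reads, and how far this reached reads from near-identical copies was not tested. Without the multi-copy regions, the AP-1 share was 48.6% in D0, 11.2% in D16S+ and 9.34% in iPSCs, and 7.14% of late desert regions held the SOX-POU composite. This filter did not take out the second sequence family described below, of which only 42 of 131 members were multi-copy. Without that family the late SOX-POU share was 3.24%.

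Many late desert regions resembled each other. Windows were joined into families where they matched over at least 100 bp at 80% identity or more. Families took in 1223 desert regions, and 1055 fell into the 34 families of at least 5 members. Of the desert regions of D16S+, 50.6% belonged to a family, as did 46.1% of those of iPSCs, 22.8% of D12S+, 6.02% of D0 and 5.73% of D6T-. The share was 52.0% in the late class and 5.21% in the early class. Families were not built for regions nearer to genes, so no such value stands beside them.

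The largest family had 293 members with a median GC content of 63.5% and a median of 476.0 genome copies per 24-mer. Of these, 226 had a peak in D16S+, 125 in iPSCs, 49 in D3 and 19 in D0. The second had 131 members, 102 of them called in iPSCs, 72 in D16S+ and 3 in D0, and 38 belonged to the late class. A SOX match was found in 83 of them and a SOX-POU match in 26. The third had 100 members, of which 86 were called in D16S+, 78 in iPSCs and 1 in D0, and 39 were late. The fourth (96 members, GC 61.5%) was called at 30 members in D3, 44 in D16S+ and 59 in iPSCs, and at 0 in D0, D6T-, D9T- and the siRNA libraries. Members of a family share their sequence, and so these counts are not independent observations. Some other families had most peaks in D0 or D6T-. Of all desert regions, 70.0% had a peak in D6T- and 27.4% in D0, so many peaks in D6T- do not set a family apart. The tenth, with 30 members, had a peak at 25 in D0 and 1 in iPSCs, and the ninth, also with 30, at 25 in D6T- and 0 in iPSCs. Of 28 members of the twelfth, 22 had a peak in D6T- and 17 held the KLF motif. In the eleventh, 13 of 28 held the octamer and 23 were called in D6T-.

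**Figure D5:**
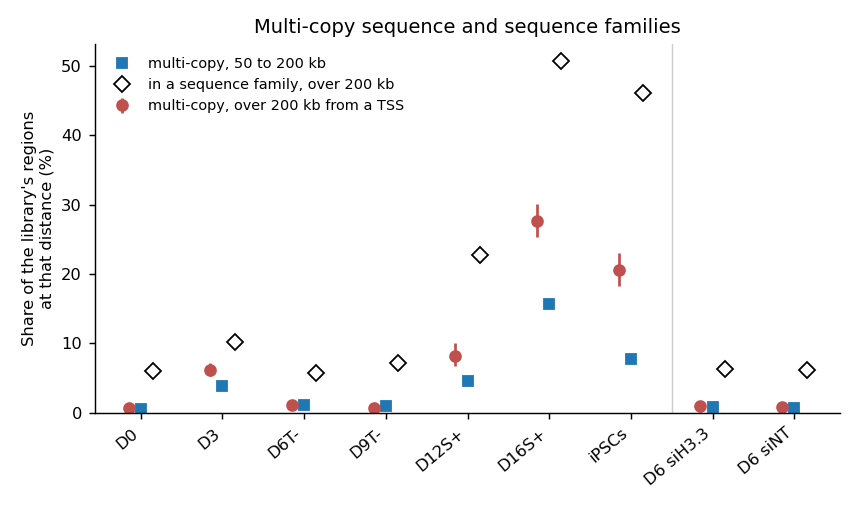
Share of each library's regions (%) that are multi-copy, over 200 kb from a TSS (circles, with 95% Wilson intervals) and 50 to 200 kb away (squares), and the share of desert regions in a sequence family (diamonds). D16S+ and iPSCs are highest in all 3, with families at 50.6% and 46.1%.

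Some desert regions were called at day 6 but at neither end of the course. Peaks in D6T-, D6 siH3.3 and D6 siNT and in none of D0, D12S+, D16S+ and iPSCs were found at 485 desert regions (6.16%, background 2.34%). The share was 3.97% at 50 to 200 kb from a TSS and 1.80% within 50 kb, so it was also above the background next to the deserts. The highest pileup of the 485 had a median of 1.36 CPM, 48.7% of them held the AP-1 motif and 15.5% the SOX motif. In regions outside the deserts of the same set, the AP-1 share was 44.4% and the SOX share 11.6%. A peak in D6T- was found at 96.5% of the desert regions of D6 siNT and 95.6% of those of D6 siH3.3, close to the 97.5% and 97.2% outside the deserts. D6 siNT held 25.6% of the desert regions of D6T-, against 32.3% outside. All 3 libraries are of Thy-1-negative cells of day 6, and siRNA and library cannot be told apart.

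Of the desert regions of D6 siNT, 75.2% also had a peak in D6 siH3.3, against 77.9% outside the deserts. Both siRNA libraries had a peak at 1098 (13.9%, background 15.7%), D6 siH3.3 alone of the pair at 509 (6.46%, background 4.88%) and D6 siNT alone at 362 (4.60%, background 4.49%). With a −log10 q-value of at least 5 the order of these counts turned, to 308 and 320. At the regions called in both, the log2 ratio of D6 siH3.3 to D6 siNT in CPM had a median of 0.10 and quartiles of -0.17 and 0.37, and its median was 0.08 outside the deserts. CPM was over 2 times higher in D6 siH3.3 at 18 desert regions and over 2 times higher in D6 siNT at 2. These are 1.64% and 0.182% of the 1098, against 1.14% and 0.448% of the 31251 regions outside the deserts. The pileup where 1 of the libraries had no peak was low, with medians of 12.0 tags in D6 siH3.3 and 13.0 in D6 siNT, against 16.0 and 18.0 where both had one. Of the D6 siH3.3-only regions 88.8% also had a peak in D6T-, and of the D6 siNT-only regions 89.5%. AP-1 shares were 44.0% in the former (39.8 to 48.3), 39.0% in the latter (34.1 to 44.1) and 51.6% where both had a peak.

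The strongest D6 siH3.3-only region lay on chromosome 7 (101959956 to 101960365), 1146.6 kb from Gm9966, with 26 tags (95% exact Poisson interval 17.0 to 38.1), which is 1.39 CPM, and 1.03 CPM in D6T-. The others lay 535.6 kb from Camk1g, a calmodulin-dependent kinase gene, and 556.5 kb from Nup35, a nuclear pore gene, with 22 tags each (13.8 to 33.3). Both also had a peak in D0, at 0.725 and 1.10 CPM. The strongest D6 siNT-only region lay 696.8 kb from Neto1 with 27 tags (17.8 to 39.3), or 1.24 CPM, and it also had a peak in each time-course library but D9T-, up to 2.27 CPM in D16S+. The others, with 23 tags each (14.6 to 34.5), lay 653.7 kb from Mettl4 and 278.9 kb from Msr1, the gene of a macrophage scavenger receptor, and both had a peak in D6T-.

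The strongest desert signals were few. The median of the highest pileup over all 9 libraries was 0.748 CPM in the deserts and 0.694 in all other regions. Within single libraries the desert median was higher than outside only in D0 (0.599 against 0.568 CPM). It was equal in D3 and iPSCs and lower in each other library, with 0.795 against 0.888 CPM in D6T-. The highest pileup exceeded 5 CPM at 23 desert regions and 10 CPM at 6. Desert regions had their highest value in D6T- in 59.8% of cases, against 50.5% of the others. The strongest of all, on chromosome 6 (9839776 to 9840318), 940.4 kb from Nxph1, matched the mitochondrial genome at 95.5% identity over 310.0 bp. It had 19 CPM in D0, 37.2 in D3, 87.3 in D6T-, 90.1 in D9T-, 86.5 in D12S+, 72.8 in D16S+, 38.1 in iPSCs, 50.6 in D6 siH3.3 and 50.5 in D6 siNT. It was the highest desert region of every library. There were 3 desert regions with such a match, all called in all 9 libraries, and the other two, near Pxmp3 and Cdh11, reached 2.95 and 3.46 CPM. The amount of mitochondrial DNA in each library was not tested.

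A region 284.3 kb from Pxmp3, a peroxisome assembly gene, ranged from 11.3 CPM in D0 to 64.8 CPM in D16S+. A region inside 2210408I21Rik ranged from 8.20 CPM in D0 to 38.1 in D12S+. Of their 24-mers, 21.5% and 45.2% were multi-copy. Next came a region 258.0 kb from 4930546C10Rik, from 2.40 CPM (D0) to 14.8 (D16S+), with 75.1% multi-copy 24-mers. All 3 were lowest in D0, as was the region near Nxph1.

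Among regions with under 10% multi-copy 24-mers and no mitochondrial match, the strongest lay 208.6 kb from 4922501C03Rik. It had 2.46 CPM in D0, 5.49 in D3, 11.2 in D6T-, 4.01 in D9T- and 3.01 in D12S+, and no peak in D16S+ or iPSCs. A region 237.4 kb from Myt1l, the gene of a neuronal zinc finger factor, had from 1.13 CPM (iPSCs) to 10.1 CPM (D6T-). A region 201.7 kb from Samd9l was highest late, with 0.441 CPM in D0, 2.29 in D6T-, 8.93 in D16S+ and 5.12 in iPSCs. A region 236.2 kb from Gata6, a transcription factor gene of the primitive endoderm, had 3.97 CPM in D0, 7.77 in D3 and from 2.15 to 4.06 CPM in the later time-course libraries.

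The spacing of desert regions was uneven between blocks. The median distance to the nearest other one was 7.78 kb, 57.0% had another within 10 kb, 85 blocks held 1 and 119 of the blocks held at least 20. The block with most, 51 in 835.7 kb on chromosome 8, lay between Gm8730 and Cdh5. Among the 20 blocks with most, the densest lay between Med13l, a Mediator subunit gene, and Tbx3, a T-box factor gene, with 44 regions in 336.5 kb (130.7 per Mb). There D0 and D3 had 20 peaks each, D6T- 18 and iPSCs 8. A block between Tbc1d22a and Fam19a5, with 46 regions in 454.4 kb, had 33 peaks in D0, 10 in D3, 11 in D6T- and 2 in iPSCs, and 25 of its regions lay inside Tbc1d22a. Here D0 rather than D6T- had most peaks. The block with most late regions, 4, lay between Nmbr and Cited2, and had 12 peaks in D16S+ and 16 in D0.

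Nearest to most desert regions were Tbl1xr1, a corepressor subunit gene (58 regions), Gm9726 (47), Tbc1d22a (46), Gpc6, a heparan sulphate proteoglycan gene (45), and Robo1, the gene of a Slit receptor (45). Med13l (44), Auts2 (43), Pcdh17 (43), Efnb2 (40) and Gfra2 and Gm9934 (39 each) followed. At Tbl1xr1, 40 of 58 had a peak in D6T-, 15 in D0 and 7 in iPSCs. Of all desert regions, 70.0% had a peak in D6T-, 27.4% in D0 and 13.8% in iPSCs, so Tbl1xr1 was near the whole. At Efnb2, the gene of ephrin-B2, 31 of 40 had a peak in D6T- and 1 in iPSCs. Pcdh17, a protocadherin gene, was near the whole in D6T-, with 29 of 43. It had more peaks in iPSCs (14) than in D0 (3). Within genes, Gpc6 held 41 desert regions, Dscam 35 and Auts2 31, among 161 host genes. The nearest gene is an annotation and not a measured target.

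The shares of 4 gene lists are read beside the desert length their genes border. Genes of neural adhesion and guidance were nearest to 930 desert regions (11.8%, against 2.08% of all union regions), and they border 15.0% of the desert length. Developmental transcription factors were nearest to 372 (4.72%, against 2.05%), with 3.92% of the length. Mesenchymal and fibroblast genes were nearest to 91 (1.16%, against 0.723%), with 0.872% of the length, and pluripotency genes to 54 (0.686%, against 0.368%), with 0.437%. The genes named next were chosen after their values were seen. Of the transcription factor genes, Ets1 and Irx1 had most, with 33 regions each. All 33 of Ets1 were called in D6T-, 12 in D0 and 1 in iPSCs. Of the 22 of Hnf4g, 12 were called in D0, 13 in D3 and 1 in D6T-.

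Of the mesenchymal genes, Cdh2 (N-cadherin) had 23 desert regions, of which 14 were called in D6T-, 7 in D16S+, 2 in D0 and 0 in D3. Inhba, the gene of the activin A subunit, had 14, with 13 in D6T- and 0 in iPSCs. Of the pluripotency list, 4 genes were nearest to any: Fbxo15 (23), Sox2 (14), Jarid2 (13) and Tet2 (4). At Sox2, 7 of 14 were called in D0, 6 in D6T-, 3 in D16S+ and 1 in iPSCs. Late regions made up 3.70% of the desert regions of this list (2 of 54), 3.55% for the neural list and 1.61% for the transcription factors, and 3 of 91 for the mesenchymal list, beside 2.83% of all desert regions.

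At the margins of the rule, the 3 desert regions that only just met it, barely over 200 kb from a TSS, had highest values of 0.795, 0.589 and 1.10 CPM. They lay nearest to Tgfbr2, Lama4 and Tgfb2 among protein-coding genes. The 3 regions that only just missed the rule lay nearest to Gm17295, Igfbp3 and A1bg, with 0.472, 0.654 and 0.888 CPM. The farthest desert region lay 1127.2 kb from any TSS and 1257.0 kb from that of Olfm4, and was called in D16S+ alone at 0.425 CPM. The other two of the farthest were called in D3 alone (0.529 CPM) and in D6T- alone (0.561 CPM). The widest, 2869 bp, lay 402.4 kb from Epha3, was 76.3% multi-copy and reached 2.50 CPM in D12S+. The next, 1996 bp and 1964 bp wide, lay 314.4 kb from Irx1 and 214.3 kb from B3gat1, had no multi-copy sequence, and were highest in D6T- at 2.80 and 7.62 CPM.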

How the data were processed

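Peak files of 9 ATAC-Seq libraries were used, 1 for each condition, with groups from the sample labels. The authors mapped reads to mm9, with STAR and Picard among the tools of the submitters' processing notes, removed duplicates, mitochondrial and ambiguously mapped reads, and called summits with MACS2 2.1.0.20151222 without a control or local background, per the file headers and the methods. The pileup the authors deposited is a signal: how many extended tags cover a summit, unscaled for depth. The deposited fold enrichment is a ratio to tags spread evenly over the genome, and the deposited −log10 p- and q-values rank the summits.

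From there, overlapping peaks on chromosomes 1 to 19 were merged (690703 of 709353 summits, the rest lying on X, Y and unplaced sequences, not used here). The highest pileup per library was divided by its total tags and multiplied by 1000000 (CPM). Distances were taken from the midpoint to 82148 TSS of GENCODE vM1, on NCBIM37, the same build. Copies of 24-mers were counted over this genome on both strands, and families and mitochondrial matches came from BLAST+ 2.17.0 (E-value of at most 1e-10). Named regions were the 5 strongest, the 2 strongest of each library, 5 early, 5 late, 3 in all libraries, 3 of each siRNA library only, the 3 farthest and the 3 widest, with the nearest protein-coding gene, and the 10 genes nearest to most regions. Sets with under 10% multi-copy 24-mers, mitochondrial matches and the late class without 1 family were added after seeing the data. The members, lists and motifs were chosen with earlier results of these data known. Python 3.11.15, numpy 2.4.6, pandas 2.3.3, scipy 1.17.1, numba 0.67.0 and matplotlib 3.10.9 were used. Merging, distances, motif matching and copy counts were tested on simulated data. Sequences shown leave out 1 chromosome. Alternatives were another distance, annotation, peak threshold, position, overlap, sequence filter, depth and set of libraries.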

Additional observations from a re-analysis of the deposited data

How the results depend on the processing

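No paired analysis was possible because each condition had 1 library. Counts were taken as moved beyond 1.5 times, other values beyond their 95% interval. The definition of a desert moved most. With midpoints over 100 kb from every TSS there were 21198 desert regions, 6154 in D0 and not iPSCs, 2628 in iPSCs and not D0, 1287 in D6 siH3.3 only and 951 in D6 siNT only of the pair, and density ratios of 0.318 (D0), 0.438 (D6T-) and 0.191 (iPSCs). Over 500 kb these were 976, 222, 149, 65 and 41, with ratios of 0.166, 0.293 and 0.153. With TSS of protein-coding transcripts only they were 19327, 5281, 2470, 1225 and 894. With a −log10 q-value of at least 5, D0 and not iPSCs had 1359 regions, iPSCs and not D0 580 and D6 siH3.3 only 308, the ratios of D0 and D6T- were 0.277 and 0.358, and the median of the highest pileup was 0.935 CPM. With the same number of strongest regions per library there were 3451 desert regions, 1015 in D0 and not iPSCs and 621 in iPSCs and not D0, ratios of 0.274 (D0) and 0.257 (D6T-), and a median of 0.941 CPM. With 1 floor of 0.530 CPM, D0 and not iPSCs had 1351 regions, the D0 ratio was 0.277 and the median 0.841 CPM. Without multi-copy regions, an alternative added after seeing the data, the iPSC ratio was 0.135. In all of these alternatives, D0 held more regions absent from iPSCs than the reverse, D6 siH3.3 only exceeded D6 siNT only but for the q-value limit (308 against 320), and the iPSC ratio was the lowest of the 3. D6T- was above D0 except with the same number of strongest regions. The highest summit in place of the midpoint, an overlap of 50% and no mitochondrial matches moved none of these results. Leaving out D9T- was run for the number of desert regions (7861) and the median (0.725 CPM) and moved neither. The genome used has 0 lower-case bases, so the planned filter on repeat-masked sequence was not run. Depth sets the floor of each library, and a region without a peak is not shown to be closed.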
